A study of Mus musculus with 4 samples.

Results

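The 8 genes described here encode transcription factors that are used as markers and regulators of endoderm, the germ layer that forms the gut, liver, pancreas and lungs. They are Gata4, Gata6, Sox17, Sox7, Foxa1, Foxa2, Foxa3 and Hnf4a, found by their gene symbols among the 24421 genes in the count files, by a rule that names no measured value. All 8 were found. Their RNA was measured with Illumina TruSeq libraries of R1, an established line of mouse embryonic stem cells (ESCs), in 2 states named Undiff and Day4, with 2 biological replicates of each that were grown and treated separately. Undiff is ESCs kept in serum-containing growth medium, with leukaemia inhibitory factor (LIF), a cytokine that holds ESCs undifferentiated, according to the methods, although the sample labels call these cells embryoid bodies. The paper's design scheme gives Undiff 4 days in growth medium. Day4 is embryoid bodies, which are aggregates of differentiating ESCs, grown for 4 days without LIF and then for 4 days with retinoic acid (RA). The dose of RA was 2 µM in the methods and 2 mM in the sample labels. By the methods, Day4 therefore differs from Undiff in LIF, aggregation, time and RA, though by the labels not in aggregation. These cannot be told apart, because Day4 cells grown without RA were not analysed here.

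Endoderm arises in the mouse embryo in separate waves. Primitive endoderm, which Gata6 and then Gata4 and Sox17 help to set up, gives rise to the extra-embryonic parietal and visceral endoderm. Definitive endoderm forms later through the primitive streak and requires Sox17 and Foxa2. GATA factors bind DNA through zinc fingers. SOX7, SOX17 and SOX18 form the SoxF subgroup of the SOX proteins and bind through an HMG box. FOXA proteins are forkhead pioneer factors that can open closed chromatin, and HNF4A is a nuclear receptor that drives liver and gut genes. None of the 8 is restricted to endoderm. Gata4 and Gata6 are also expressed in heart and lateral mesoderm, Sox7 and Sox17 in endothelium, and Foxa1 and Foxa2 in the floor plate of the neural tube and in the notochord.

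In Day4, 6 of the 8 genes rose, Foxa3 fell, and Hnf4a was not a DEG, as defined by the 3 criteria that follow. Counts were scaled with edgeR's TMM method and are given as normalized counts. The states were compared with edgeR's quasi-likelihood test over the 19891 genes that had any count. A differentially expressed gene (DEG) met 3 criteria, namely an adjusted p-value of 0.05 or lower, a log2 fold change of 1 or more in either direction, and 5 or more normalized counts on average. The background was high, because 42.8% of all genes tested were DEGs, with 22.2% higher and 20.6% lower in Day4. The median log2 fold change of the 8 genes was 2.89, and that of all genes tested was -0.03. All 8 genes met the criterion on the average count. For 7 of the 8 genes the libraries of the 2 states did not overlap, which was also the case for 85.4% of all genes tested, so that the absence of overlap alone says little. With 2 libraries per state an exact two-sided permutation test cannot go below p = 0.333, and the adjusted p-values rely on a variance that edgeR shares among genes. In bulk RNA, fewer cells of a type and less RNA per cell cannot be told apart.

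**Figure D1:**
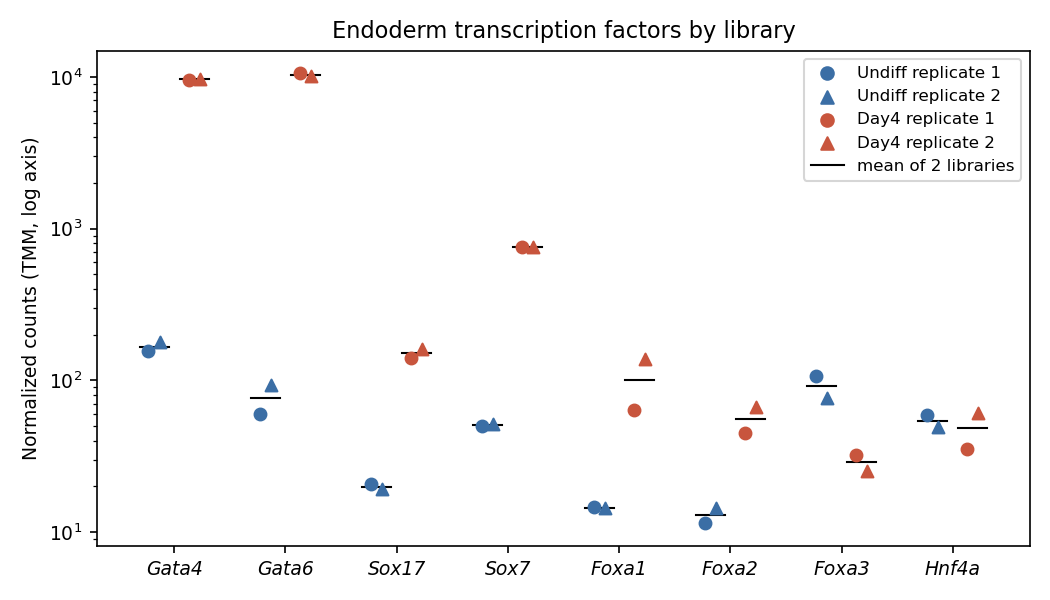
Normalized counts of the 8 genes (log axis) in each of the 4 libraries, with Undiff in blue, Day4 in red, circles for replicate 1, triangles for replicate 2 and black lines for the mean of the 2 libraries. Gata4 and Gata6 stood between 9528 and 10571 in Day4, while Foxa1, Foxa2, Foxa3 and Hnf4a were at 138 or lower in every library.

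The sequencing depth was between 32099074 and 47730944 fragments on genes per library. A floor of 3 counts corresponded to between 0.0629 and 0.0935 CPM (counts per 1e+06 counts of the library), which covers counting error only, and no member was at or below the floor in any library. The pluripotency markers were high in the libraries labelled Undiff, with summed levels of 3647 and 3731 CPM, and low in the Day4 libraries, with 23.8 and 20.05 CPM, and all 8 of them fell.

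The GATA members showed the largest changes. Gata4, on chromosome 14 (chr14:63198922-63271692, minus strand, GRCm38), had 155 and 178 normalized counts in the Undiff replicates and 9528 and 9714 in the Day4 replicates. Its mean rose from 167 ± 16.3 to 9621 ± 131 (SD, n = 2), a 57.7-fold rise, with a log2 fold change of 5.86 ± 0.07 (SE, 95% interval 5.71 to 6.00, edgeR adjusted p = 6.4e-16). The states were much farther apart than the replicates. Gata6, on chromosome 18 (chr18:11052064-11085635, plus strand), which acts upstream of Gata4 in the primitive endoderm of the blastocyst, had 60.4 and 93.3 normalized counts in Undiff and 10571 and 10070 in Day4. Its mean rose from 76.9 ± 23.3 to 10321 ± 355 (SD, n = 2), a 134-fold rise, with a log2 fold change of 7.09 ± 0.10 (SE, 95% interval 6.88 to 7.29, edgeR adjusted p = 2e-15). The 2 Undiff values of Gata6 were less alike than those of Gata4, at a ratio of 1.54 for replicate 2 over replicate 1. Ordered by log2 fold change from the highest, Gata6 was number 228 and Gata4 number 416 of the 8521 DEGs.

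Since Gata6 rose more than Gata4, their balance shifted. Divided by exon length, the Gata6 level was 0.234 and 0.314 times the Gata4 level in the Undiff libraries, and 0.666 and 0.622 times in the Day4 libraries. Gata4 thus remained the higher of the pair per kb in all 4 libraries, but the gap depended on the length used. With the longest transcript as the length, the Day4 libraries had 74.9 and 76.3 CPM per kb for Gata4. Gata6 then had 74.6 and 71.1, so that the pair was nearly equal in Day4. Without division by length the ratio of counts was 0.389 and 0.523 in Undiff and 1.11 and 1.04 in Day4, and the order in Day4 was the opposite one.

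The closest relatives of these 2 genes moved with them, except Gata1. Gata5, a GATA factor of heart and gut, had 4 and 4 counts in Undiff and 981 and 1366 in Day4 (log2 fold change 7.82 ± 0.17, SE). Gata2, a factor of blood, endothelial and neural progenitors, had 66 and 65 counts in Undiff and 4453 and 5877 in Day4 (log2 fold change 5.97 ± 0.08, SE). Gata3, known from T cells and trophoblast, rose by a log2 fold change of 3.55. Gata1, the erythroid GATA factor, had 60 and 49 counts in Undiff and 39 and 62 in Day4 and was not a DEG (log2 fold change -0.44, 95% interval -0.91 to 0.03). The FOG cofactors, which bind GATA factors and change their activity, also rose, with a log2 fold change of 6.51 for Zfpm2 (FOG2) and 3.52 for Zfpm1 (FOG1). Of the 7 relatives and cofactors, 6 rose and 0 fell, with a median log2 fold change of 3.55.

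Summed over the 6 GATA genes, the level per kb of exon rose from 2.70 ± 0.298 to 142 ± 0.896 (SD, n = 2, CPM per kb), a 52.6-fold rise. The share of Gata6 in this sum rose from 11.6% ± 2.26 to 29.9% ± 0.837 (SD, n = 2). The share of Gata4 was 42.3% ± 0.545 in Undiff and 46.4% ± 0.927 in Day4. Gata1, whose Day4 level was 0.729 times that in Undiff, went from 24.8% to 0.341% of the sum as the other members rose. In Day4, Gata4 and Gata6 together with Gata2, at 15.98%, made up most of the GATA RNA.

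**Figure D2:**
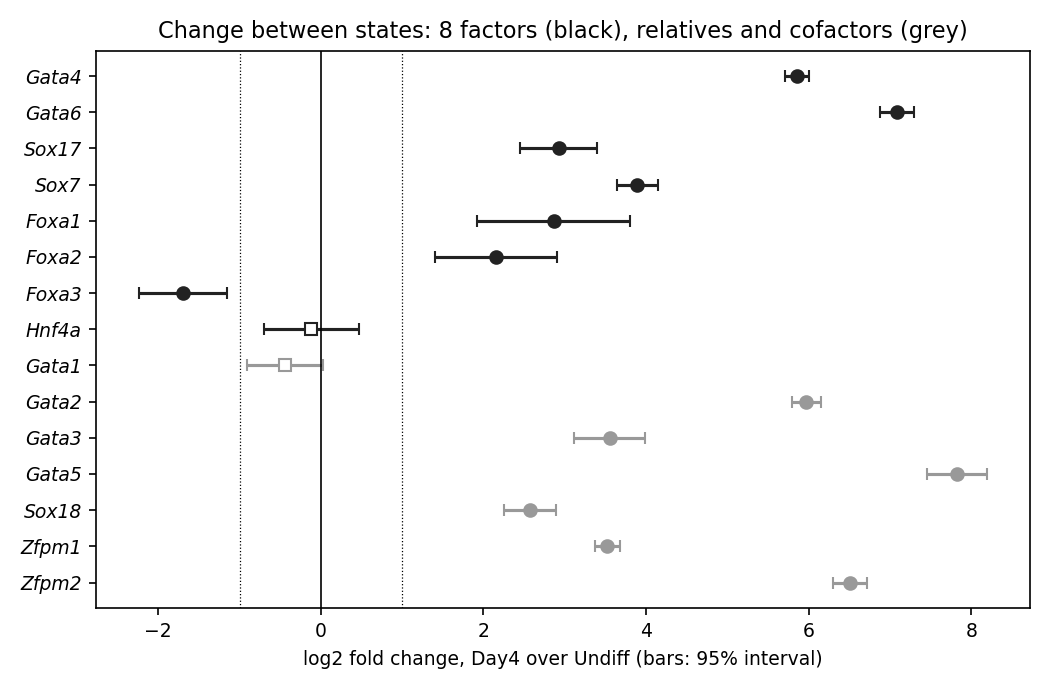
Log2 fold change of Day4 over Undiff with its 95% interval for the 8 endoderm factors (black) and for 7 relatives and cofactors (grey), where filled circles are DEGs, open squares are not, and dotted lines mark a log2 fold change of 1 in either direction. Gata5, Gata6 and Zfpm2 lie farthest to the right, Foxa3 is the only DEG to the left of 0, and the interval of Hnf4a spans 0.

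Gata6 shares its start region with 1010001N08Rik, a noncoding transcript on the opposite strand that overlaps the gene by 504 bases, 93 of them in exons of both. It had 5 and 4 counts in Undiff and 620 and 848 in Day4, a 129.9-fold rise (log2 fold change 6.98 ± 0.19, SE), close to that of Gata6 itself. The methods say that strandedness was considered in counting genes and name a strand-specific setting for the long-read Direct RNA samples alone. The setting for the gene counts of these libraries is not given, although by the methods their exons were counted without regard to strand. Without the strand, fragments from the shared exonic bases may be assigned to neither gene or to the wrong one. The transcript reached 0.0613 and 0.0647 counts per count of Gata6 in Day4, so that Gata6 held by far the larger number.

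The SoxF members rose less than the GATA members and were nearly equal between replicates. Sox7 (chr14:63943673-63950732, plus strand), a factor of parietal endoderm and early endothelium, had 50.02 and 51.5 normalized counts in Undiff and 755 and 752 in Day4. Its 14.9-fold rise corresponded to a log2 fold change of 3.89 ± 0.12 (SE, 95% interval 3.64 to 4.14, edgeR adjusted p = 2.3e-12). Sox17 (chr1:4490931-4497354, minus strand), which is required for the definitive gut endoderm, had 20.8 and 19.1 normalized counts in Undiff and 141 and 162 in Day4. Its 7.58-fold rise corresponded to a log2 fold change of 2.92 ± 0.22 (SE, 95% interval 2.44 to 3.40, edgeR adjusted p = 3.4e-08). The states did not overlap for either gene. The 95% intervals of their log2 fold changes did not overlap each other, and the difference between them was not tested. Sox17 overlaps a noncoding transcript on the opposite strand, Gm37587, by 804 bases, all of them in exons of both. Gm37587 is not among the counted genes, so that without the strand its fragments from these bases would be counted for Sox17. How far this applies was not tested.

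The third SoxF gene, Sox18, which acts in endothelium and lymphatic vessels, had 59 and 64 counts in Undiff and 422 and 498 in Day4 (log2 fold change 2.57 ± 0.15, SE). Per kb of exon, Sox18 held most of the SoxF sum in Undiff, at 68.4% ± 3.29, against 49.3% ± 2.74 in Day4 (SD, n = 2). Sox7 went from 24.8% ± 2.16 to 44.5% ± 1.85, whereas Sox17 stayed the smallest, at 6.80% ± 1.13 and 6.19% ± 0.884 (SD, n = 2). The ranges of Sox17's share overlapped between the states. The sum of the 3 genes rose 8.27-fold, from 1.66 ± 0.177 to 13.7 ± 0.619 CPM per kb (SD, n = 2).

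Sox7 lies on the same chromosome as Gata4, with 671980 bases and 7 counted genes between them. The rise of these 2 genes did not extend over the interval. Of the 7 genes in it, 3 fell, among them Tdh, the threonine dehydrogenase of ESCs, from 16746 and 15672 counts in Undiff to 117 and 95 in Day4 (log2 fold change -7.58). Fam167a (log2 fold change -4.19) and Pinx1 (-1.16) also fell. Xkr6 rose by 1.75 on the log2 scale, from 8 and 10 counts to 39 and 38. Blk was called higher with 1 and 2 counts in Undiff and 2 and 20 in Day4, and its states overlapped. Mtmr9 was not a DEG (-0.41), and Mir598 had 0 counts in all 4 libraries.

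The FOXA members did not move together, with 2 rising and 1 falling. Foxa1 (chr12:57540628-57546916, minus strand), which acts in endoderm, lung and gland epithelium, had 14.6 and 14.4 normalized counts in Undiff and 63.7 and 138 in Day4. Its 6.98-fold rise corresponded to a log2 fold change of 2.86 ± 0.43 (SE, 95% interval 1.92 to 3.80, edgeR adjusted p = 4e-05). The size of the rise depended on the Day4 library used, with a log2 fold change of 2.10 without Day4 replicate 2 and of 3.24 without Day4 replicate 1. It remained a DEG in both cases. Foxa2 (chr2:148042877-148046969, minus strand), which is required for the node, notochord and foregut, had 11.5 and 14.4 normalized counts in Undiff and 44.9 and 66.8 in Day4. Its 4.33-fold rise corresponded to a log2 fold change of 2.15 ± 0.34 (SE, 95% interval 1.41 to 2.90, edgeR adjusted p = 6.6e-05). Both genes were low in both states, with no more than 180 raw counts in any library.

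Foxa3 (chr7:19013284-19023538, minus strand), which acts in liver and gut after the other FOXA genes, went the other way. It had 106 and 76.6 normalized counts in Undiff and 32.4 and 25.3 in Day4, a ratio of 0.316 of Day4 to Undiff. The log2 fold change was -1.70 ± 0.25 (SE, 95% interval -2.24 to -1.16, edgeR adjusted p = 3e-05), and the states did not overlap. Its neighbour on the opposite strand, Sympk, does not overlap it and was not a DEG, at 6297 and 5284 counts in Undiff and 7701 and 10342 in Day4.

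The makeup of the FOXA sum turned over, while the sum itself overlapped between the states. Per kb of exon, the sum was 1.46 ± 0.254 in Undiff and 1.82 ± 0.532 CPM per kb in Day4 (SD, n = 2), a difference smaller than the SD in Day4. The libraries stood at 1.64 and 1.28 in Undiff and at 1.44 and 2.19 in Day4. With 2 libraries per state that differ this much, whether the sum changed cannot be told. Foxa3 held 81.7% ± 4.67 of it in Undiff and 22.3% ± 10.1 in Day4, Foxa1 8.07% ± 1.31 and 43.0% ± 10.7, and Foxa2 10.3% ± 3.36 and 34.7% ± 0.560 (SD, n = 2). For each of the 3 shares the libraries of the states did not overlap. The ratio of Foxa1 to Foxa3 per kb was 0.0840 and 0.115 in Undiff and 1.20 and 3.34 in Day4, so that Foxa3 was the higher gene in both Undiff libraries and Foxa1 in both Day4 libraries.

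**Figure D3:**
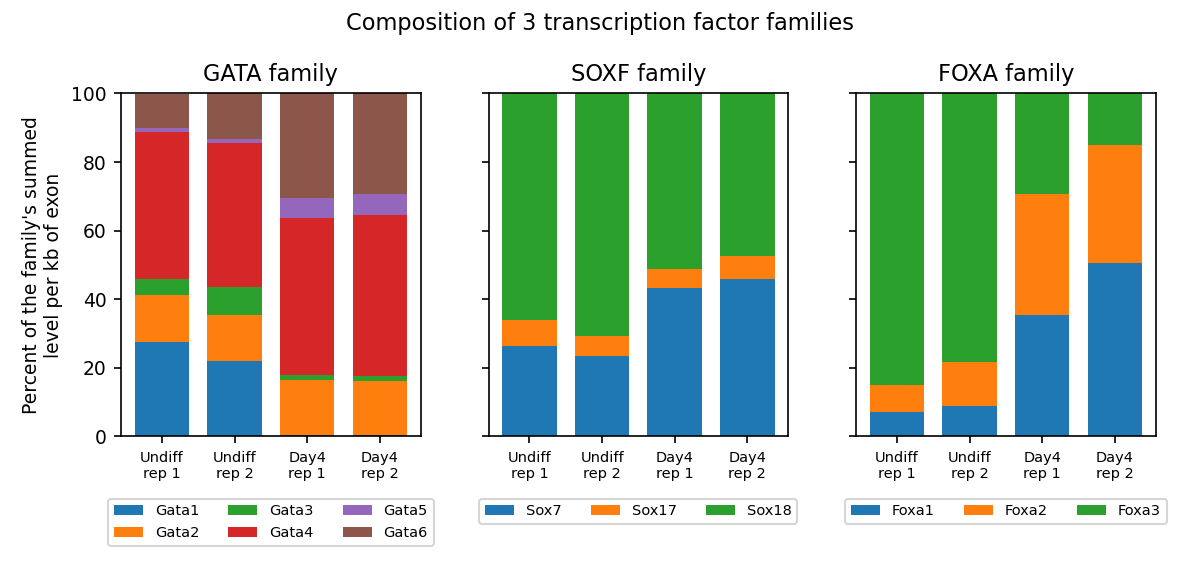
Percent of the summed level per kb of exon held by each gene of the GATA, SoxF and FOXA families in each library, as stacked bars from 0 to 100. Foxa3 fills most of the FOXA bars in Undiff and the smallest part in Day4 replicate 2, while Gata6 and Sox7 take a larger part of their families in Day4 than in Undiff.

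The sequences just before the starts of the 3 FOXA genes are shown because these relatives moved in opposite directions. They are RefSeq promoter windows on GRCm38.p6, each 250 bases long and read 5′ to 3′ on the strand of the gene up to the base before a RefSeq start. The RefSeq start of Foxa1 lies inside the GENCODE interval given above, downstream of the GENCODE start, so that its window falls within that interval. The windows lie at chr12:57546112-57546361 (minus) for Foxa1, chr2:148046970-148047219 (minus) for the most upstream of 3 RefSeq starts of Foxa2, and chr7:19023540-19023789 (minus) for Foxa3. Capitals mark a match to a short word bound by forkhead or GATA proteins, searched on both strands. The forkhead words were TGTTTAC, with the variants spelled TGTTTGC, likewise TGTTTGT, plus finally TATTTAC. The GATA words were AGATAA, with the variants spelled TGATAA, likewise AGATAG, plus finally TGATAG.
Foxa1: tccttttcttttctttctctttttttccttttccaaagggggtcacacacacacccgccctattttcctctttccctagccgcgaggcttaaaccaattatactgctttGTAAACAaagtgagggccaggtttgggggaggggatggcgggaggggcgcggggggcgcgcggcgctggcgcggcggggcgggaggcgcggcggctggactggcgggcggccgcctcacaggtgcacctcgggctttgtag
Foxa2: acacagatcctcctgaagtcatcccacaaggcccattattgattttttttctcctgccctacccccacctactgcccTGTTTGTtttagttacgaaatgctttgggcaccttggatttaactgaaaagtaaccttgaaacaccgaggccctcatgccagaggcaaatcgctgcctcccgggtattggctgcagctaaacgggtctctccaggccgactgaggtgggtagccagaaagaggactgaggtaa
Foxa3: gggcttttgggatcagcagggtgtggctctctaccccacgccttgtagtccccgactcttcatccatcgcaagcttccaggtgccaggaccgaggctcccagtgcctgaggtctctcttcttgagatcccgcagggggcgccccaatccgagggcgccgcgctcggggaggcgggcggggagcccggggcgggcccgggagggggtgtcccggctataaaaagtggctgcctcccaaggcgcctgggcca
Foxa1 held the forkhead word in reverse complement, GTAAACA, beginning 141 bases before the start, and Foxa2 held TGTTTGT beginning 173 bases before it. No word was matched in the Foxa3 window. Forkhead words occurred in 14.6% and GATA words in 26.5% of the 32851 mouse windows of this length, so that such a match is common, and it is not a shown binding site. Among the other windows, another Foxa2 start had a GATA word (AGATAA) beginning 183 bases before it, the remaining Foxa2 start had no word, and the 2 Hnf4a starts had a GATA word (AGATAA) beginning at 52 bases and a forkhead word (ACAAACA, in reverse complement) beginning at 133 bases. RefSeq windows were examined for 4 of the 8 members, namely Foxa1, Foxa2, Foxa3 and Hnf4a. Those of the other members were not examined.

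Hnf4a (chr2:163506808-163572910, plus strand) differed from the other members in that its states overlapped. It had 59.4 and 49.1 normalized counts in Undiff and 35.5 and 61.4 in Day4, with means of 54.2 ± 7.31 and 48.5 ± 18.3 (SD, n = 2). The log2 fold change was -0.12 ± 0.27 (SE, edgeR adjusted p = 0.70), and its 95% interval from -0.70 to 0.47 holds changes of either sign but not a change of 1 on the log2 scale. The sign turned when Undiff replicate 1 (0.04) or Day4 replicate 1 (0.17) was left out. An antisense gene in its introns, Hnf4aos, had 0 counts in all 4 libraries. The gene just upstream, R3hdml, fell from 72 and 61 counts in Undiff to 0 and 1 in Day4, at least 27.2-fold.

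Ordered by level per kb of exon, the 8 genes changed places between the states. In Undiff, Foxa3 (1.20 CPM per kb) and Gata4 (1.14) led, and their ranges over the 2 libraries overlapped. Sox7 (0.411), Gata6 (0.316) and Hnf4a (0.300) followed, of which Gata6 and Hnf4a overlapped. Foxa2 (0.146), Foxa1 (0.116) and Sox17 (0.112) were lowest, with Foxa1 and Sox17 overlapping. In Day4, Gata4 (65.8) was above Gata6 (42.4), and Sox7 (6.10) came next, each separated from its neighbour. Sox17 (0.848), Foxa1 (0.811) and Foxa2 (0.630) overlapped with their neighbours in this order, and Foxa3 (0.378) and Hnf4a (0.268) overlapped at the bottom. Foxa3 went from the leading pair to the lowest pair, and Gata4 from 1.14 to 65.8 CPM per kb.

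**Figure D4:**
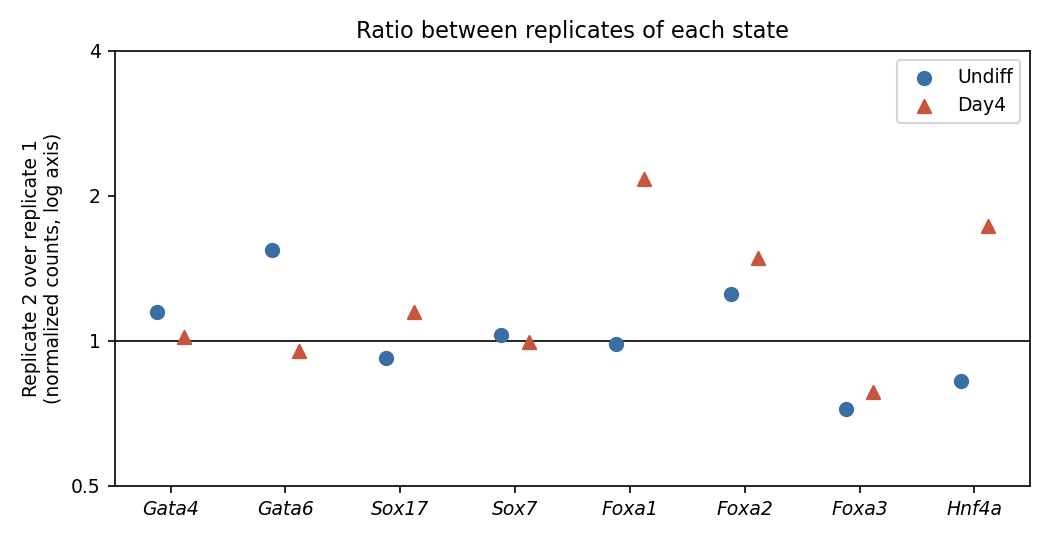
Ratio of replicate 2 to replicate 1 in normalized counts (log axis) for each of the 8 genes in Undiff (circles) and Day4 (triangles), with a line at 1. Foxa1 in Day4 is the highest point at 2.17 and Hnf4a in Day4 the next at 1.73, while Gata4 (1.02) and Sox7 (0.995) in Day4 lie close to the line.

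The replicates of a state were closer for some members than for others. In Day4, Foxa1 was 2.17 times, Hnf4a 1.73 times and Foxa2 1.49 times higher in replicate 2 than in replicate 1, and Foxa3 was lower in replicate 2, at a ratio of 0.782. Gata6 in Day4 stood at 0.953. The widest ratio in Undiff was that of Gata6, at 1.54. An exact binomial test of the counts, which covers counting error only, was run on the 16 pairs. At an adjusted p of 0.05 or lower, 3 pairs differed, namely Foxa1, Gata6 and Hnf4a in Day4. Foxa2 (adjusted p = 0.106) and Foxa3 (0.547) in Day4 and Gata6 in Undiff (0.0502) did not. Of the 1968 genes with 30 to 150 normalized counts in Day4, the median ratio was 1.00, and 0.152% were at least 2-fold higher in replicate 2, as Foxa1 was. Each replicate is 1 library of 1 culture, so that culture and library cannot be told apart.

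The genes whose pattern over the 4 libraries was most like that of a member were found by the Euclidean distance between log2(CPM + 0.5) values, each centred on its mean, among 16471 other genes. Because 4 libraries in 2 states leave little room for different patterns, these are descriptions only. The added 0.5 shrinks the changes of genes with very low counts, so that near genes can differ in fold change. Between 62 (Gata6) and 5476 (Foxa3) genes lay within a distance of 1 of a member. The nearest to Gata4 were Gata2 (distance 0.083) and Hand2 (0.097), a factor of heart and limb. Hand2 had a log2 fold change of 8.14, against 5.86 for Gata4. Bmper (0.170), a secreted BMP-binding protein, was the nearest to Gata6, followed by Sptssb (0.237). The nearest to Sox7 was Sdk1 (0.035), to Sox17 Snhg18 (0.036), to Foxa2 Zbtb16 (0.081) and to Foxa3 Dnajb13 (0.062). C130021I20Rik (0.294) and Ttr (0.304), a serum protein of visceral endoderm and liver, were nearest to Foxa1. Ttr had 6 and 2 counts in Undiff and 33 and 90 in Day4, and was, like Foxa1, higher in Day4 replicate 2.

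Other transcription factors of endoderm were split. Of 22 listed, 9 rose, 4 fell and 9 were not DEGs, with a median log2 fold change of 1.40. Nr2f2 (COUP-TFII) rose from 9 and 10 counts to 13389 and 17905, and Nr2f1 from 3 and 2 to 2734 and 3820, at least 862-fold, and both are orphan nuclear receptors that are also expressed in mesenchyme and neural tissue. Nr5a2, an orphan receptor that also acts in ESCs, fell from 1735 and 1699 counts to 206 and 294 (log2 fold change -3.12). The factors at the floor in all 4 libraries were Hnf4g, Onecut3, Pdx1, Nkx2-1, Pax9 and Ptf1a, 6 in all, among them defining factors of pancreas, lung and thyroid. Inducers of the primitive streak and mesendoderm, through which definitive endoderm forms, were mostly lower, with 8 of 12 falling and 1 rising (median log2 fold change -3.73). Tdgf1, the Nodal coreceptor, fell from 44211 and 35790 counts to 16 and 26, and Gdf3 from 4037 and 3600 to 14 and 13, whereas Lhx1 rose from 11 and 4 to 326 and 480. Tdgf1 is also a pluripotency marker.

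Target and marker genes were counted for each kind of endoderm. Of 17 genes of primitive and parietal endoderm, 10 rose and 2 fell, with a median log2 fold change of 1.21. Plat, a plasminogen activator, rose from 202 and 126 counts to 12423 and 16813, and Pdgfra, a receptor of primitive endoderm that is also widespread in mesenchyme, from 174 and 166 to 6980 and 9402. Lama1, the laminin chain of the parietal basement membrane, fell by 2.34 on the log2 scale and Klf6 by 1.04. Of 27 visceral endoderm and liver-type genes, 9 rose and 11 fell, with a median log2 fold change of -1.31, or -0.66 with genes at the floor set to their bound. Ihh (log2 fold change 3.89) and Apoa1 (3.87) rose, while Lefty1 (-7.14) and the transferrin gene Trf (-5.20) fell. Alb, Apoc2 and Cer1 were at the floor in all 4 libraries. Afp, the fetal serum protein of visceral endoderm, had 0 and 0 counts in Undiff and 81 and 50 in Day4, at least 18.3-fold higher.

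Of 15 genes of definitive endoderm and gut epithelium, 4 rose and 6 fell, with a median log2 fold change of -0.01, or -0.61 with genes at the floor set to their bound. Shh rose at least 65.9-fold, from 0 and 3 counts to 187 and 322, and Cxcr4 by a log2 fold change of 3.56. Trh (-9.54) and the epithelial cadherin Cdh1 (-5.60) fell. Beside the rise of 6 endoderm factors, the list of each kind of endoderm held DEGs of both signs. Among all genes tested 22.2% were higher and 20.6% lower, so that both signs in a list say little on their own.

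**Figure D5:**
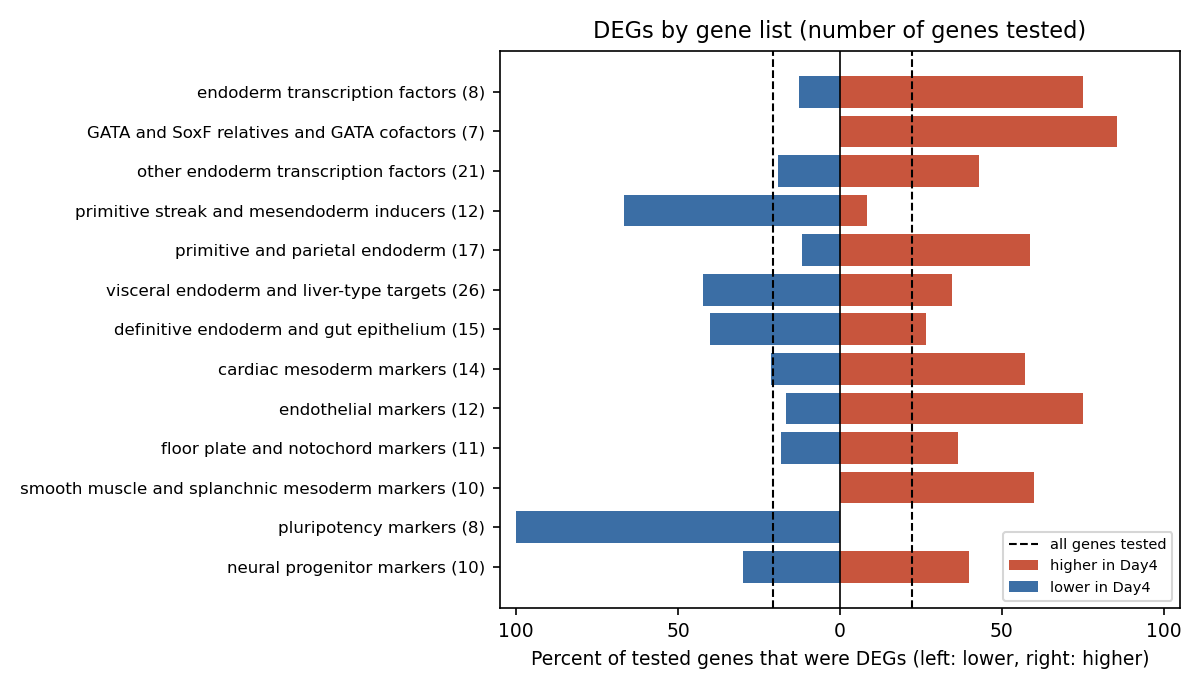
Percent of tested genes in each list that were DEGs lower (blue, left) or higher (red, right) in Day4, with the number of genes tested in brackets and dashed lines for all genes tested at 20.6% and 22.2%. The endoderm transcription factors, their relatives and the endothelial markers have the longest red bars, the pluripotency markers are all lower, and the visceral and definitive endoderm lists have DEGs on both sides.

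Markers of other cell types that express these factors moved as well, and their part in the result was not tested. Of 12 endothelial markers, 9 rose and 2 fell (median log2 fold change 3.22), and their summed level rose from between 213 and 219 CPM in Undiff to between 420 and 426 CPM in Day4. Cdh5, the endothelial cadherin, rose from 43 and 45 counts to 2550 and 3478, and Emcn from 1 and 0 to 472 and 655, at least 148-fold, whereas Pecam1 (-1.19) and Tek (-1.02) fell. The list includes Sox18. With only 2 states, any gene higher in Day4 moves together with Sox7 and Sox17. Of 14 cardiac mesoderm markers, 8 rose and 3 fell (median log2 fold change 1.58), with a summed level of 29.7 and 30.9 CPM in Undiff and 152 and 152 CPM in Day4. Tbx5 rose at least 289.96-fold and Hand2 by a log2 fold change of 8.14, whereas the myosin gene Myh6 (-5.55) and Hand1 (-1.86) fell. Nkx2-5, a defining factor of cardiac precursors, had 2 and 0 counts in Undiff and 1 and 4 in Day4.

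The smooth muscle and splanchnic mesoderm list, whose cells surround the gut and also express Gata4 and Gata6, had 6 of 10 genes higher and 0 lower, with a median log2 fold change of 2.72. Its summed level rose from 101 and 95.1 CPM to 707 and 750 CPM. Wt1 weighs most in the Day4 sum, at 14092 and 13936 normalized counts in Day4 (log2 fold change 5.58). Among the smooth muscle genes, Acta2 rose (log2 fold change 2.55), while Tagln, Cnn1, Myh11 and Des were not DEGs. Foxf1, the forkhead factor of gut mesenchyme, had 2 and 2 counts in Undiff and 3158 and 4323 in Day4, at least 985-fold higher, and Tcf21 had 0 and 1 and then 2002 and 2784, at least 629.7-fold higher. For Foxa1 and Foxa2, the floor plate and notochord list had 4 of 12 genes higher and 2 lower, and its summed level was 41.2 and 44.9 CPM in Undiff and 53.9 and 54.7 CPM in Day4. Shh and Corin (log2 fold change 3.77) rose, T fell at least 37.8-fold, Spon1 fell by 1.19 on the log2 scale, and the defining markers Nkx2-2 and Noto were at the floor in all 4 libraries. The neural progenitor list had 4 of 10 genes higher and 3 lower, with Dcx at least 304-fold higher, Hoxb4 higher (log2 fold change 8.46), and Tubb3 (-3.82) and Pax6 (-2.11) lower. Some genes stand in 2 lists, namely Gata5, Sox18, Shh, T and Tdgf1.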

How the data were processed

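RNA of mouse R1 ESCs was sequenced on the Illumina TruSeq platform in 2 Undiff and 2 Day4 libraries, assigned from the sample labels. Reads were trimmed (cutadapt), aligned to mm10 (STAR) and counted per gene (HTSeq, unique alignments) by the authors. The deposited values are raw counts for each gene symbol. Fragments on no gene (7.50% to 13.2%) and on more than 1 gene (1.84% to 1.91%) were left out. The series describes strand-specific TruSeq libraries. The methods considered strandedness in counting genes and name the option used for Direct RNA only. For exons, they give counting without regard to strand for these libraries.

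The quasi-likelihood test of edgeR 4.0.16 was run on TMM-scaled counts in R 4.3.3, without a replicate term, with Benjamini-Hochberg adjustment. A fold is the ratio of mean normalized counts, and a state whose libraries all had 3 counts or fewer was set to this floor. Levels per kb used the union of exons in GENCODE vM21 on GRCm38, which matched 23334 of the 24421 symbols. Named genes were every member, the relatives list, and for each other list the 2 highest and the 2 lowest log2 fold changes among DEGs that averaged 1 CPM or more. Neighbouring genes, genes at the floor, Afp, Ttr, Nkx2-5, Wt1, Fgf8 and the smooth muscle genes were named after their values were seen. Some genes that the rule would name are not reported here. The members and lists were chosen with earlier results of these data known, so that no list count is independent support. The test was checked on simulated counts. Alternatives were DESeq2 1.42.0, other scalings, filters and thresholds, thinning, a replicate block, other lengths and leaving out each library.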

Additional observations from a re-analysis of the deposited data

How the results depend on the processing

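The 6 members that rose and the 1 that fell kept their direction and their side of the threshold under every alternative run. The sign of Hnf4a turned without Undiff replicate 1 (0.04) and without Day4 replicate 1 (0.17), and it was not a DEG in any case. With a library left out, log2 fold changes ranged from 6.79 to 7.41 for Gata6, from 2.10 to 3.24 for Foxa1, from 1.77 to 2.37 for Foxa2, from -1.90 to -1.43 for Foxa3 and from -0.65 to 0.17 for Hnf4a. The lone library of a state is then assumed to vary like the other state. Same-numbered libraries did not deviate together (correlation of their deviations from the state means -0.01 over 16472 genes). With 2 libraries per state and counting error in each, this cannot show whether same-numbered cultures were handled together. The fit with a replicate block gave 8515 DEGs against 8521 and changed no call among the members. Without division by length, the Day4 shares were 37.1% for Gata4, 39.8% for Gata6, 57.2% for Sox7, 11.5% for Sox17 and 30.4% for Foxa2. With the longest transcript as the length, 7 of the 8 positions in the Undiff order differed and none in Day4. The Day4 shares in the GATA sum were then 38.9% for Gata4 and 37.5% for Gata6. Depth limits Sox17, Foxa1, Foxa2, Foxa3 and Hnf4a, which have at most 211 counts in any library.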

Other observations

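In Day4, Foxa1, Foxa2 and Hnf4a were each higher in replicate 2, though Foxa2 was not beyond counting error (exact binomial test, adjusted p = 0.106). The direction of other genes between these 2 libraries was then counted list by list, for genes averaging 5 or more normalized counts, a comparison made after the values were seen. The share of genes higher in replicate 2 was 12 of 13 in the definitive endoderm and gut list and 13 of 16 among the other endoderm transcription factors, but 10 of 23 in the visceral endoderm and liver-type list, where the median ratio of replicate 2 to replicate 1 was 0.936. Some lists outside endoderm also had more genes higher in replicate 2, at 8 of 10 in the smooth muscle and splanchnic mesoderm list (median ratio 1.12). The endothelial list had 9 of 12, though its median ratio was 1.01, and the primitive streak and mesendoderm list 7 of 10. The average of 5 normalized counts was taken over all 4 libraries, so that some streak genes passed through Undiff alone. T (1.04 and 2.30 normalized counts in Day4) and Fgf8 (0 and 2.30) were counted as higher in replicate 2 on very few fragments. Other lists did not lean this way, with 5 of 9 in the floor plate and notochord list (median ratio 1.02). Of the 8 pluripotency markers, 1 was higher in replicate 2, with a median ratio of 0.917. Among all genes at this level, 50.2% were higher in replicate 2. Ttr had a ratio of 2.00, Cdh1 of 1.39 and Epcam of 1.20, whereas Afp (0.454) and Trh (0.499) were lower in replicate 2. What separates the 2 Day4 libraries was not tested.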
